A study of Mus musculus with 10 samples.

Results

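The nuclear-encoded subunits of the mitochondrial oxidative phosphorylation complexes were followed in 3T3-L1 cells, a mouse preadipocyte line, after knockdown of the histone demethylase LSD1. Members were chosen by gene symbol from the platform annotation (names starting with Nduf and a subunit letter, Sdha to Sdhd, names starting with Uqcr, Cyc1, names starting with Cox4 to Cox8, and names starting with Atp5). This gave 82 genes of the 18193 measured: 35 of complex I, 4 of complex II, 9 of complex III, 17 of complex IV and 17 of complex V. Each gene is given by its brightest probe set, by the mean over the 10 arrays. Cells received 60 nM of an siRNA against LSD1 (siLsd1) or of a scrambled control siRNA (siC). There were 2 siLsd1 and 2 siC arrays at 24 h, from passage 19, and 3 siLsd1 and 3 siC arrays at 48 h, from passage 21, with 1 array per sample and no change of medium after transfection. The labels call the replicates biological, so the p-values rest on the spread between these cultures as labelled. Values are intensities on a linear scale, each probe set binds its target with its own strength, and so no gene's level is set against another's.

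The respiratory chain sits in the inner mitochondrial membrane. Complex I (NADH dehydrogenase) and complex II (succinate dehydrogenase) pass electrons to coenzyme Q, complex III passes them on to cytochrome c, and complex IV (cytochrome c oxidase) gives them to oxygen. Complexes I, III and IV pump protons, and complex V, the ATP synthase, makes ATP as the protons flow back. Most subunits are encoded in the nucleus and a few central ones in mitochondrial DNA, so the complexes are built from products of both genomes. In fat cells, differentiation and browning are known to come with more mitochondria and with tissue-specific complex IV isoforms.

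Kdm1a, which encodes LSD1, had intensities of 1001 and 971 on the siLsd1 24 h arrays, against 1559 and 1621 on the siC 24 h arrays. At 48 h it had 1352, 1336 and 897 on the siLsd1 arrays, against 1596, 1787 and 1775 on the siC arrays. All siLsd1 values lay below all siC values, with log2 changes of -0.69 at 24 h (adjusted p = 0.0473, limma) and -0.55 at 48 h (adjusted p = 0.0338, limma). The 48 h change of Kdm1a was -0.35, still called, without siLsd1 48 h replicate 3. The median intensity per array was 35.6 to 40.6. The array of siLsd1 48 h replicate 3 stood apart from the other siLsd1 48 h arrays as a whole, not in the subunits alone. For the 6943 genes that averaged 8 or more in log2 intensity, the SD of the log2 difference was 0.441 and 0.439. All other pairs of arrays of a group had 0.0892 to 0.2045. Over 80 subunits the SD was 0.275 and 0.253, against 0.123 to 0.187 for those other pairs. By the subunits that array lay at 0.194 and 0.258 from the siLsd1 24 h arrays, and counts are also given without it. Of 9 fibroblast markers, 8 were measured above the dim level (Cd34 was not). The summed intensity of these 9 was 54358 to 55121 on siLsd1 24 h arrays against 58523 to 60222 on siC 24 h arrays. At 48 h the sum was 46440 to 58097 on siLsd1 arrays against 60917 to 61986 on siC arrays. Of 6 brown fat markers, 3 were above the dim level (Cox7a1, Ppargc1a and Dio2) and Ucp1, Cidea and Cox8b were below. Of 6 fat cell markers, 3 were above (Adipoq, Fabp4 and Lipe) and Lep, Cidec and Retn were below. Markers of other cells were also above it: 5 of 6 for macrophages (Ptprc was below), 4 of 6 for muscle, 2 of 4 for endothelium and 1 of 4 for epithelium. The summed macrophage markers were 884 to 942 on siLsd1 24 h arrays against 875 to 887 on siC 24 h arrays, and 715 to 859 on siLsd1 48 h arrays against 764 to 805 on siC 48 h arrays. The summed intensity of the mature fat cell markers (6 of 8 measured, mostly Fabp4) was 1437 to 1729 on siLsd1 24 h arrays against 3613 to 3704 on siC 24 h arrays, and 1488 to 3131 on siLsd1 48 h arrays against 4706 to 5450 on siC 48 h arrays. Their part in the results was not tested. The arrays measure bulk RNA, in which fewer cells of a type and less RNA per cell cannot be told apart.

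With LSD1 knockdown subunit genes were called at shares below or near those of all genes, and the counts moved with the settings. At 24 h, 1 of 80 tested subunits was called, Ndufv3, which was lower, at an adjusted p under 0.05 over all 13644 genes tested (limma), or 1.25%, against 5.39% of all genes (2.6% higher, 2.79% lower). At 48 h 7 subunits were called, 2 higher and 5 lower, or 8.75%, against 12.7% of all genes (6% higher, 6.67% lower). With arrays centred on the median 5 were called at 48 h, 2 higher and 3 lower, against 13.2% of all genes. For the mean of both times 15 were called, 3 higher and 12 lower, or 18.8%, against 23.8% of all genes (10.1% higher, 13.7% lower). Without siLsd1 48 h replicate 3 these counts were 17 at 24 h (21.2%, against 25.5% of all genes), 12 at 48 h (15%, against 18.1%) and 21 for the mean (26.2%, against 33.8%). All 15 genes called for the mean were among those 21. With all arrays kept, 22.5% of all genes tested had an unadjusted p under 0.05 (limma) in the 24 h comparison. The 48 h comparison had 31.7%, and the mean of both times had 37.2%. In the same order, the 80 subunits had 18.8%, 26.2% and 32.5%. Counts at an unadjusted p given below are to be read against these shares.

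Most changes of the subunits were small. At 24 h the log2 change lay within 0.25 of 0 for 71 of 80 subunits (88.8%), against 57.9% of all genes tested and 63.6% of the 6943 genes that averaged 8 or more in log2 intensity. At 48 h it did for 68 subunits (85%), against 56.8% of all genes and 60.1% of those brighter genes. The 95% interval of the change lay within 0.5 of 0 for 66 of 80 subunits at 24 h and for 66 at 48 h, and no subunit changed by more than 1 on the log2 scale. The median log2 change was -0.05 at 24 h (30 positive, 50 negative), beside -0.02 over all genes tested, and -0.04 at 48 h (28 positive, 52 negative), beside -0.02. The siLsd1 and siC arrays did not overlap for 39 subunits at 24 h, 12 higher and 27 lower, where 61.4% of all genes tested did not overlap (27.5% higher, 33.9% lower). At 48 h they did not overlap for 27 subunits, 7 higher and 20 lower, against 37.5% of all genes (16.6% higher, 20.9% lower).

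**Figure D1:**
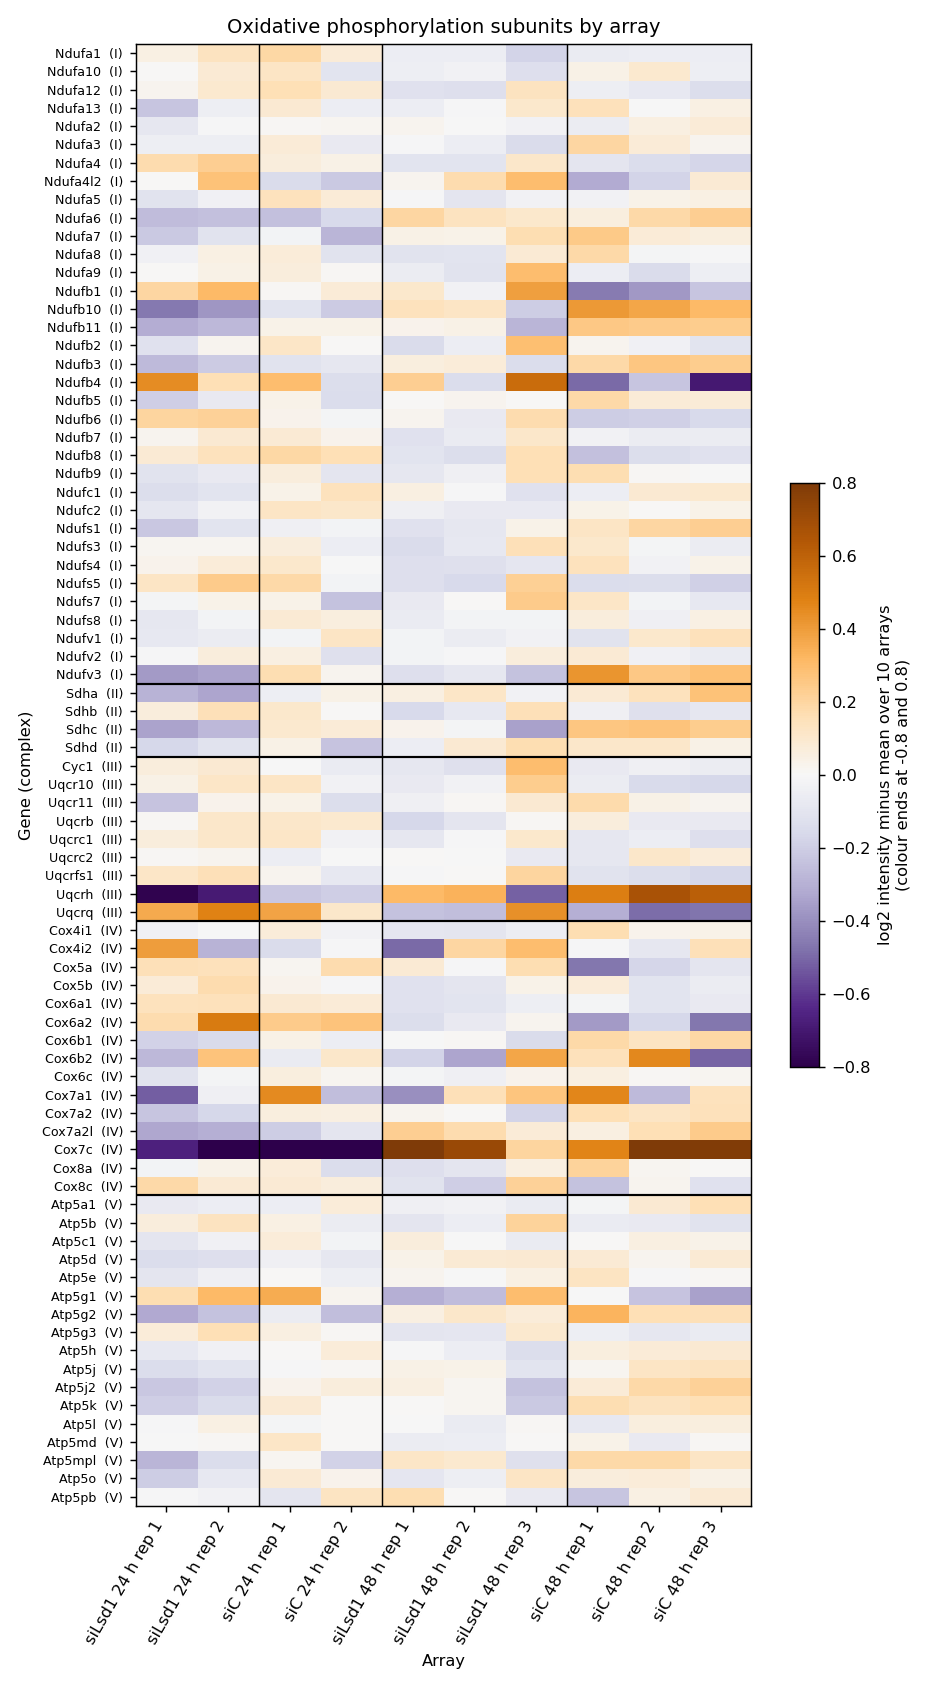
Heat map of the 80 tested subunits (down the page, by complex) on the 10 arrays (across). Colour is the log2 intensity minus the gene's mean over all arrays, with the colour scale ending at -0.8 and 0.8; siLsd1 48 h replicate 3 differs in pattern from the other siLsd1 48 h arrays.

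**Figure D2:**
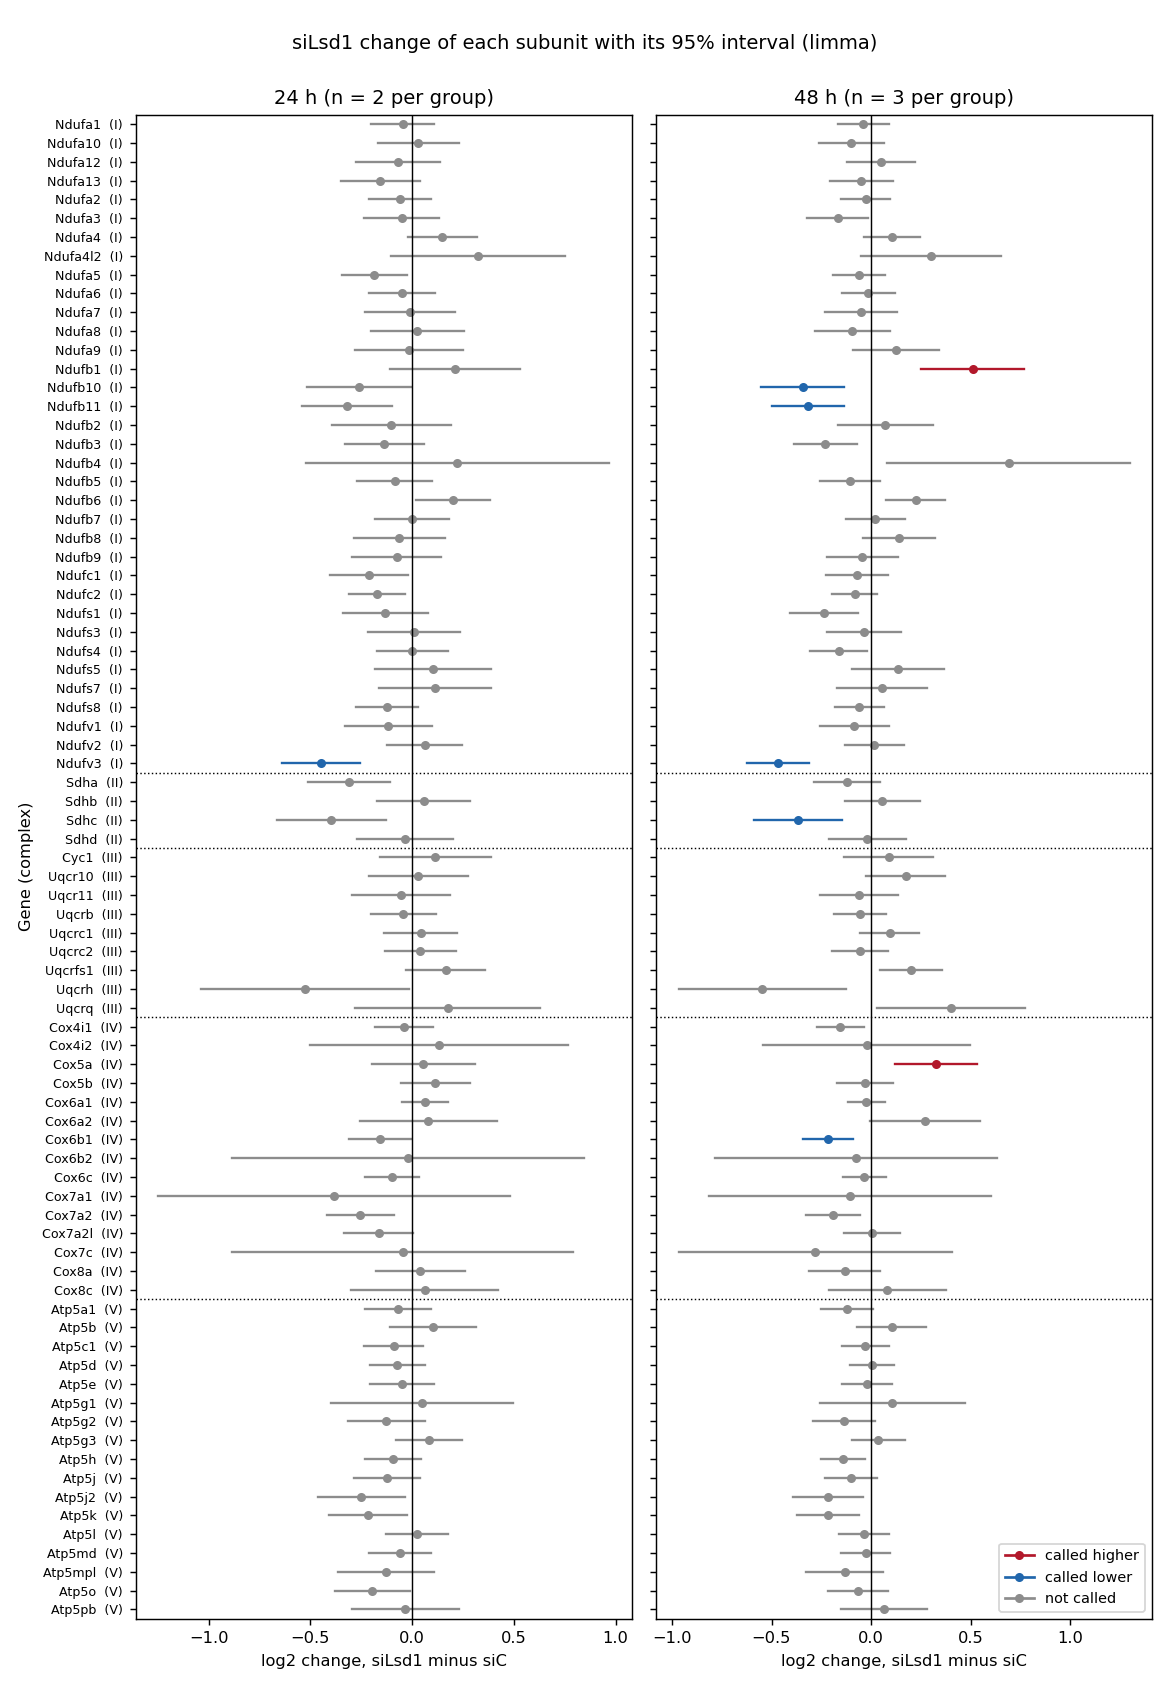
Log2 change, siLsd1 minus siC, of each of the 80 tested subunits at 24 h and 48 h, with the 95% interval from limma. Red points were called higher, blue points were called lower and grey points were not called; 1 point is coloured at 24 h and 7 at 48 h.

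The 5 called genes shown here are examples and do not stand for the rest. Of the other genes called for the mean of both times, Ndufb10, Ndufb11, Ndufb3, Ndufc2 and Uqcrfs1 had windows without a match. Windows of Cox6b1, Cox7a2, Atp5j2 and Ndufb6 held a match, and Sdhc had no window. Upstream sequence is shown for Ndufv3, called at both times, Uqcrh, Sdha and Atp5k, called lower for the mean, and Ndufb1, called higher. Each is the 250 bases before the start of the gene in RefSeq's GRCm38.p6 annotation, in lower case, with matches to the motif letters below in capitals, either as written or as the opposite strand reads.
Ndufv3, chr17:31519865-31520114, plus strand, with an Sp1 match at -139 to -134: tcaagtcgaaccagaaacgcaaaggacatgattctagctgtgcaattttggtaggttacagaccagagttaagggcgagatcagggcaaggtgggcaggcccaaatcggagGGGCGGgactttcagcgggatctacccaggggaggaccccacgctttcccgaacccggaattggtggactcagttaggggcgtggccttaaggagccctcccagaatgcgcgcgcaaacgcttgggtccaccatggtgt
Uqcrh, chr4:116075071-116075320, minus strand, with an ETS match at -10 to -4 that lies on the opposite strand: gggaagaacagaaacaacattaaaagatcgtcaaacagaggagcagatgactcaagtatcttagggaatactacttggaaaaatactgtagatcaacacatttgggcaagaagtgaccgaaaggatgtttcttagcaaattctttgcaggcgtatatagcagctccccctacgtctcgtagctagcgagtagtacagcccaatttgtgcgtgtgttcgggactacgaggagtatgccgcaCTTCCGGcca
Sdha, chr13:74350241-74350490, minus strand, with NRF1 matches starting at -98, -55 and -10: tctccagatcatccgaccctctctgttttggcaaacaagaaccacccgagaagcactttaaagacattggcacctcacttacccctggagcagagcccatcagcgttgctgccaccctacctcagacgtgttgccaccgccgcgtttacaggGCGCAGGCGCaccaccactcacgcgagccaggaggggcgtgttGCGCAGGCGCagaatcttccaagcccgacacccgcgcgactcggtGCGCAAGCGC
Atp5k, chr5:108434400-108434649, minus strand, with an NRF1 match at -50 to -41 that reads on both strands: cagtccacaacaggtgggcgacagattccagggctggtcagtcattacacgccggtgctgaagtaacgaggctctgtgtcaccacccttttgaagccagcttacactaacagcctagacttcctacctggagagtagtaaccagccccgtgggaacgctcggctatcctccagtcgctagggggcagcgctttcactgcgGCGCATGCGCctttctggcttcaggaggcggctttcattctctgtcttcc
Ndufb1, chr12:101975739-101975988, minus strand, with no match: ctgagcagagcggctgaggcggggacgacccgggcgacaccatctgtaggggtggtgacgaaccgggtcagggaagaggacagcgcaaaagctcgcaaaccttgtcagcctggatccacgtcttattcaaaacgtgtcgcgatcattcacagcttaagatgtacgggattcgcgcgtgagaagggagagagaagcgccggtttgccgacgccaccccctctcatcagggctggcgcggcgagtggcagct

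NRF1, the ETS factor GABPA and YY1 are transcription factors known to act on respiratory chain genes, and Sp1 binds many promoters without a TATA box. Windows of 300 bases (250 before to 50 after the start) were found for 66 of the 82 genes, 71 windows in all, and both strands were searched. The NRF1 letters (GCGCA, any base, then GCGC) occurred in 16 windows (22.5%), against 7.45% of the 18009 windows of genes on the array. The ETS letters CCGGAAG occurred in 17 (23.9%, against 13%), the YY1 letters AAGATGGCG in 6 (8.45%, against 2.1%) and the Sp1 letters GGGCGG in 29 (40.8%, against 52.4%). In these windows 1 pair of matches of different motifs overlapped. Among the 11 windows of genes called lower for the mean of both times, 3 held the ETS letters, 2 the NRF1, 1 the YY1 and 2 the Sp1 letters. Among the 57 windows of genes not called, 13, 14, 5 and 26 did, in that order. Of the 3 windows of genes called higher, 1, 0, 0 and 1 did. The groups of windows were not tested against each other. These are matches of letters, and no binding was measured.

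Complex I has a catalytic core and accessory subunits that stabilise the enzyme around it. None of the 6 genes that carry the flavin, the iron-sulfur clusters and the quinone site (Ndufv1, Ndufv2, Ndufs1, Ndufs3, Ndufs7, Ndufs8) was called with siLsd1 at either time or for the mean, with 0, 1 and 1 of them at an unadjusted p under 0.05 (limma). Ndufs1, an iron-sulfur subunit, had a mean log2 change of -0.18 just short of a call (adjusted p = 0.0509, limma), and the core was not tested against the accessory subunits. None of the 11 Ndufa accessory genes (without Ndufa4 and Ndufa4l2) was called either, with 1 at an unadjusted p under 0.05 at 24 h and 1 at 48 h. Of the 13 Ndufb and Ndufc genes, of the membrane arm, 0 were called at 24 h (5 at an unadjusted p under 0.05), 3 at 48 h (1 higher, 2 lower) and 6 for the mean (2 higher, 4 lower). The median log2 change of complex I was -0.05 at 24 h and -0.04 at 48 h.

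Ndufv3, a small subunit near the NADH-binding end of the peripheral arm, was the subunit called at both times. Its intensities were 2416 and 2460 on siLsd1 24 h arrays against 3494 and 3164 on siC 24 h arrays. At 48 h Ndufv3 had 2851, 2937 and 2636 on siLsd1 arrays against 4170, 3706 and 3787 on siC arrays. Each siLsd1 array was below each siC array of its time. The log2 change was -0.45 ± 0.09 (SE) at 24 h (adjusted p = 0.0188, limma) and -0.47 ± 0.07 at 48 h (adjusted p = 0.00502, limma). The 24 h call was lost whenever 1 of the 24 h arrays was left out, where the change was -0.38 to -0.52 and the adjusted p (limma) 0.0750 to 0.165. The call at 48 h and that for the mean, a log2 change of -0.46, held in all 10 fits that left out 1 array.

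Ndufb11, a membrane arm subunit, had 3194 and 3274 on siLsd1 24 h arrays against 4039 and 4043 on siC 24 h arrays. At 48 h Ndufb11 had 4028, 4056 and 3241 on siLsd1 arrays against 4711, 4666 and 4645 on siC arrays. No siLsd1 array reached the siC arrays of its time. Ndufb11 fell by 0.32 on the log2 scale at 48 h (adjusted p = 0.0338, limma) and for the mean (adjusted p = 0.00761, limma, held in all 10 fits that left out 1 array), while the 24 h change of -0.32 was not called (adjusted p = 0.0893, limma). Ndufb10, of the same arm, had 1492 and 1576 on siLsd1 24 h arrays against 1907 and 1772 on siC 24 h arrays. At 48 h Ndufb10 had 2261, 2235 and 1781 on siLsd1 arrays against 2729, 2651 and 2538 on siC arrays. The groups did not overlap at either time, and the gene fell by 0.34 at 48 h (adjusted p = 0.0406, limma). The 48 h calls of Ndufb10 and Ndufb11 were lost when any 24 h array or any siC 48 h array was left out, with changes of -0.40 to -0.23 for Ndufb10 and -0.37 to -0.21 for Ndufb11 over all such fits. The changes nearest 0 were those without siLsd1 48 h replicate 3, with both calls kept.

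Ndufb1, another membrane arm subunit, went the other way, with 371 and 399 on siLsd1 24 h arrays against 325 and 340 on siC 24 h arrays. At 48 h Ndufb1 had 347, 317 and 423 on siLsd1 arrays against 235, 249 and 275 on siC arrays. All siLsd1 values were above the siC values of their time. It rose by 0.51 ± 0.12 (SE) on the log2 scale at 48 h (adjusted p = 0.0252, limma), and the call was lost without siC 48 h replicate 1 or without siC 48 h replicate 2 (changes over all such fits 0.39 to 0.60). For the mean of both times Ndufb1 rose by 0.36 and Ndufb6 by 0.21, while Ndufb3 fell by 0.18 and Ndufc2 by 0.13. Of the 10 fits that left out 1 array, Ndufc2 was called in 1 (-0.14 to -0.11), Ndufb3 in 3 (-0.20 to -0.15), Ndufb1 in 5 (0.30 to 0.40) and Ndufb6 in 6 (0.18 to 0.24). For Ndufb3, Ndufb1 and Ndufb6 the calls were lost whenever a 24 h array was left out, and for Ndufb3 also whenever a siC 48 h array was. Ndufa4, now regarded as a complex IV subunit, had a mean log2 change of 0.13 (adjusted p = 0.0898, limma), and its paralog Ndufa4l2, known as a hypoxia-induced gene, 0.31 (adjusted p = 0.0955, limma). Ndufb4 had a change of 0.69 ± 0.27 at 48 h that was not called (adjusted p = 0.116, limma), on a probe set close to the dim level, with a mean intensity of 19.2. Its other probe sets, listed under several symbols, were not used.

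**Figure D3:**
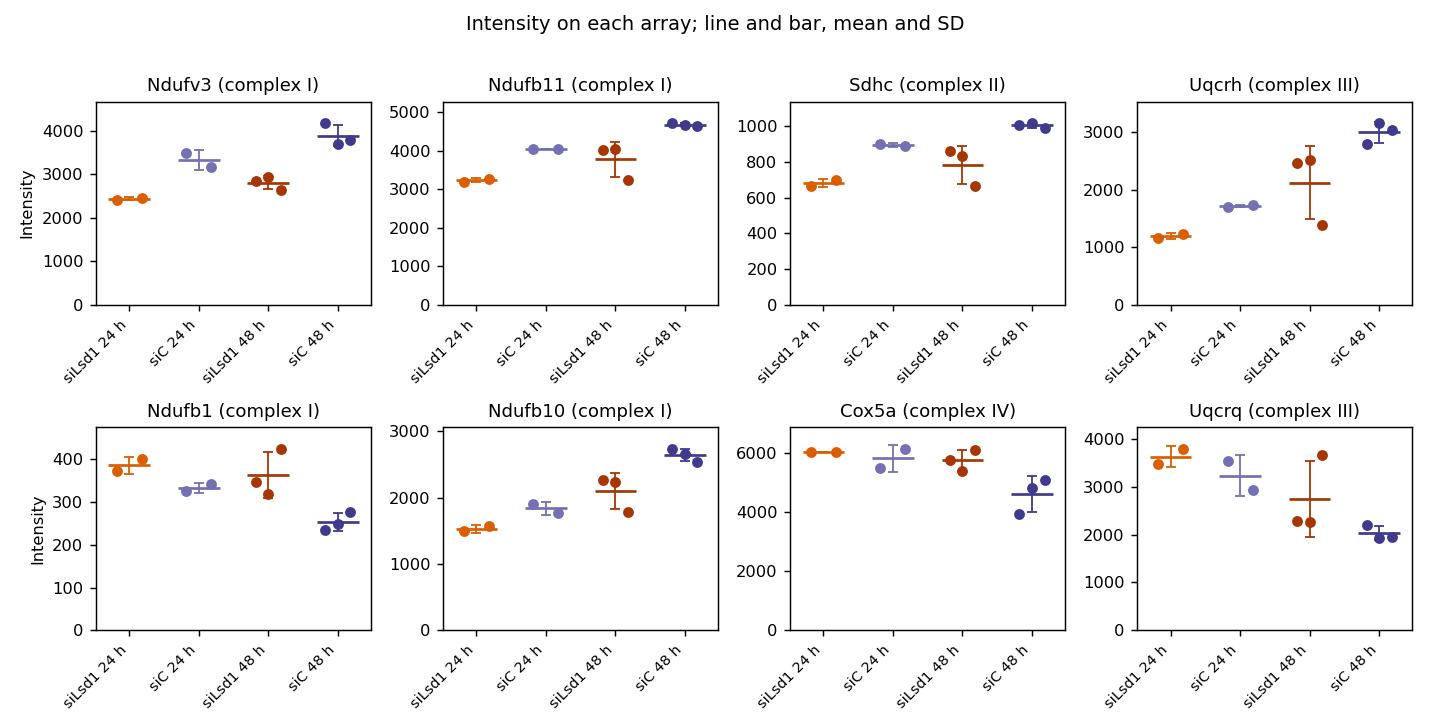
Intensity (linear scale) of 8 subunits on each array, with siLsd1 to the left of siC at each time; points are arrays, and the line and bar are the mean and SD. Ndufv3, Ndufb11, Sdhc, Uqcrh and Ndufb10 lie lower with siLsd1, Ndufb1 lies higher at both times, and Cox5a and Uqcrq lie higher at 48 h.

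Complex II also takes part in the citric acid cycle, and all of its subunits are nuclear-encoded. Sdhc, a membrane anchor subunit, had 664 and 696 on siLsd1 24 h arrays against 902 and 889 on siC 24 h arrays. At 48 h Sdhc had 859, 833 and 662 on siLsd1 arrays against 1008, 1016 and 990 on siC arrays. The siLsd1 arrays were the lower ones at both times without overlap. Sdhc fell by 0.37 ± 0.10 (SE) on the log2 scale at 48 h (adjusted p = 0.0397, limma) and by 0.38 for the mean (adjusted p = 0.00819, limma), and the 24 h change of -0.40 was not called (adjusted p = 0.0873, limma). The call for the mean held in all 10 fits that left out 1 array, and the one at 48 h in 3, those without a siLsd1 48 h array.

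Sdha, the flavoprotein that oxidises succinate, had 1276 and 1236 on siLsd1 24 h arrays against 1509 and 1603 on siC 24 h arrays. At 48 h Sdha had 1621, 1688 and 1532 on siLsd1 arrays against 1652, 1719 and 1897 on siC arrays. The groups were apart at 24 h and overlapped at 48 h. Sdha fell by 0.21 for the mean of both times (adjusted p = 0.0258, limma, held in 4 of the 10 fits that left out 1 array, and lost without a 24 h array or siC 48 h replicate 2 or 3). Sdhb, the iron-sulfur subunit, had log2 changes of 0.06 at 24 h and 0.06 at 48 h, and neither it nor the other anchor, Sdhd, was called in a comparison of the siRNAs.

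In complex III, 0 of 9 subunits were called at 24 h or at 48 h (1 and 3 at an unadjusted p under 0.05, limma), and 2 were for the mean of both times. Uqcrh, the hinge protein that helps dock cytochrome c1 with cytochrome c, had 1158 and 1235 on siLsd1 24 h arrays against 1707 and 1736 on siC 24 h arrays. At 48 h it had 2465, 2511 and 1392 on siLsd1 arrays against 2803, 3157 and 3032 on siC arrays. The siLsd1 arrays were below the siC arrays at both times, and siLsd1 48 h replicate 3 was the lowest of its set by far. The log2 change was -0.53 ± 0.23 (SE) at 24 h (adjusted p = 0.211, limma), -0.55 ± 0.19 at 48 h (adjusted p = 0.0795, limma) and -0.54 for the mean, which was called (adjusted p = 0.0277, limma). The call for the mean was lost without a 24 h array or siC 48 h replicate 2 or 3 (-0.61 to -0.40 over all 10 fits that left out 1 array). Without siLsd1 48 h replicate 3, Uqcrh was called at 24 h at the same change and at 48 h at a change of -0.27, so the size at 48 h moved by more than 1.5 times with that array.

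Uqcrfs1, the Rieske iron-sulfur protein, rose by 0.18 for the mean (adjusted p = 0.0400, limma), with 2397 and 2461 on siLsd1 24 h arrays against 2242 and 2094 on siC 24 h arrays. At 48 h Uqcrfs1 had 2196, 2213 and 2540 on siLsd1 arrays against 2053, 2018 and 1968 on siC arrays. The groups did not overlap, yet the call was lost whenever a 24 h array or a siC 48 h array was left out (0.15 to 0.21 over all 10 such fits) and was lost after quantile normalization. Uqcrq, a small subunit at the membrane, had 3471 and 3780 on siLsd1 24 h arrays against 3528 and 2922 on siC 24 h arrays. At 48 h Uqcrq had 2292, 2271 and 3665 on siLsd1 arrays against 2198, 1933 and 1952 on siC arrays. Its change of 0.40 at 48 h was not called (adjusted p = 0.130, limma) and was 0.17 without siLsd1 48 h replicate 3. Cyc1 (cytochrome c1) and the core proteins Uqcrc1 and Uqcrc2 were not called at either time.

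In complex IV, 15 of 17 genes passed the filter on dim probe sets, which Cox7b2 (mean intensity 15.4) and Cox8b (17.0), the fat and muscle isoform, did not. Just above the filter's level of 18.4 stood Cox7a1 at 19.6 and Cox6b2 at 20.6. None of the 5 tissue isoforms tested (Cox4i2, Cox6a2, Cox6b2, Cox7a1 and Cox8c) was called in a comparison of the siRNAs, and 0 of them had an unadjusted p under 0.05 at either time. Among the 10 general isoforms, 0 were called at 24 h (2 at an unadjusted p under 0.05), 1 higher and 1 lower at 48 h, and 2 lower for the mean.

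Cox6b1, which faces the intermembrane space, had 4507 and 4606 on siLsd1 24 h arrays against 5249 and 4920 on siC 24 h arrays. At 48 h Cox6b1 had 5092, 5136 and 4614 on siLsd1 arrays against 5803, 5580 and 5822 on siC arrays. The siLsd1 arrays were lower without overlap. It fell by 0.21 ± 0.06 (SE) on the log2 scale at 48 h (adjusted p = 0.0366, limma) and by 0.19 for the mean (adjusted p = 0.0156, limma). The 48 h call was lost whenever a 24 h array or a siC 48 h array was left out (-0.24 to -0.17 over all 10 such fits). Cox7a2, the general isoform of a small subunit, had 4141 and 4337 on siLsd1 24 h arrays against 5063 and 5042 on siC 24 h arrays. At 48 h Cox7a2 had 4933, 4873 and 4291 on siLsd1 arrays against 5426, 5274 and 5371 on siC arrays. It fell by 0.22 for the mean (adjusted p = 0.00963, limma), lost only without siLsd1 24 h replicate 1 among the 10 fits that left out 1 array (adjusted p = 0.0563, limma, and 0.000534 to 0.0563 over all 10).

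Cox5a, a matrix-side subunit, had 6060 and 6038 on siLsd1 24 h arrays against 5517 and 6146 on siC 24 h arrays. At 48 h Cox5a had 5776, 5413 and 6108 on siLsd1 arrays against 3942, 4828 and 5095 on siC arrays. The groups overlapped at 24 h, and at 48 h the siC arrays were all lower. It rose by 0.33 ± 0.09 (SE) at 48 h (adjusted p = 0.0465, limma), a call kept, of the 10 fits that left out 1 array, in that without siLsd1 48 h replicate 2, with adjusted p from 0.0451 to 0.100 and changes of 0.22 (without siC 48 h replicate 1) to 0.40. The difference of its changes, 48 h minus 24 h, was 0.27, with an unadjusted p of 0.0936 (limma).

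On the deposited values no ATP synthase gene had a log2 change beyond 0.25 with LSD1 knockdown. After quantile normalization Atp5j2 had -0.29 at 24 h (not called) and -0.27 for the mean (called). At 24 h and at 48 h 0 of 17 were called, with 3 and 3 at an unadjusted p under 0.05 (limma), and for the mean 2 were lower. For all 17 the 95% interval of the change lay within 0.5 of 0 at both times, with 13 negative at 24 h and 12 at 48 h. The log2 changes ran from -0.25 (Atp5j2) to 0.10 (Atp5b, the catalytic beta subunit) at 24 h and from -0.22 (Atp5k) to 0.11 (Atp5g1, a c ring subunit) at 48 h. Of the 9 genes of the catalytic head and the stalks, 0 were called at either time or for their mean, with 1, 1 and 3 at an unadjusted p under 0.05.

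The calls for the mean of both times were Atp5j2 and Atp5k, small membrane subunits f and e, of which subunit e is known for its part in dimers of the enzyme. Atp5j2 had 4008 and 4122 on siLsd1 24 h arrays against 4766 and 4902 on siC 24 h arrays. At 48 h Atp5j2 had 4859, 4729 and 3950 on siLsd1 arrays against 4926, 5314 and 5431 on siC arrays. Atp5k had 2351 and 2436 on siLsd1 24 h arrays against 2861 and 2700 on siC 24 h arrays. At 48 h Atp5k had 2706, 2726 and 2328 on siLsd1 arrays against 3024, 2960 and 3018 on siC arrays. Both were lower on every siLsd1 array than on the siC arrays of its time. Atp5j2 fell by 0.23 (adjusted p = 0.0239, limma) and Atp5k by 0.22 (adjusted p = 0.0203, limma), kept in 4 and 7 of the 10 fits that left out 1 array (-0.26 to -0.19 and -0.24 to -0.18), and both lost without siC 24 h replicate 1 or a siLsd1 24 h array.

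By complex, the medians on the deposited values lay between -0.17 and 0.09. At 24 h the median log2 change was -0.05 for complex I, -0.17 for complex II, 0.04 for complex III, -0.02 for complex IV and -0.07 for complex V, and at 48 h it was -0.04, -0.07, 0.09, -0.03 and -0.04 in that order. After quantile normalization the medians at 24 h were -0.08, -0.18, 0.01, -0.05 and -0.11, and at 48 h -0.07, -0.08, 0.07, -0.05 and -0.07. Complex III had the positive median at both times in both scalings, and without siLsd1 48 h replicate 3 its 48 h median was -0.03. Quantile normalization called 1 subunit at 24 h (5.53% of all genes), 12 at 48 h (2 higher, 10 lower, 15%, against 15% of all genes) and 19 for the mean (2 higher, 17 lower, 23.8%, against 24.5% of all genes). At 48 h these were the 7 called before plus Ndufb3, Cox4i1, Cox7a2, Atp5h and Atp5k.

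**Figure D4:**
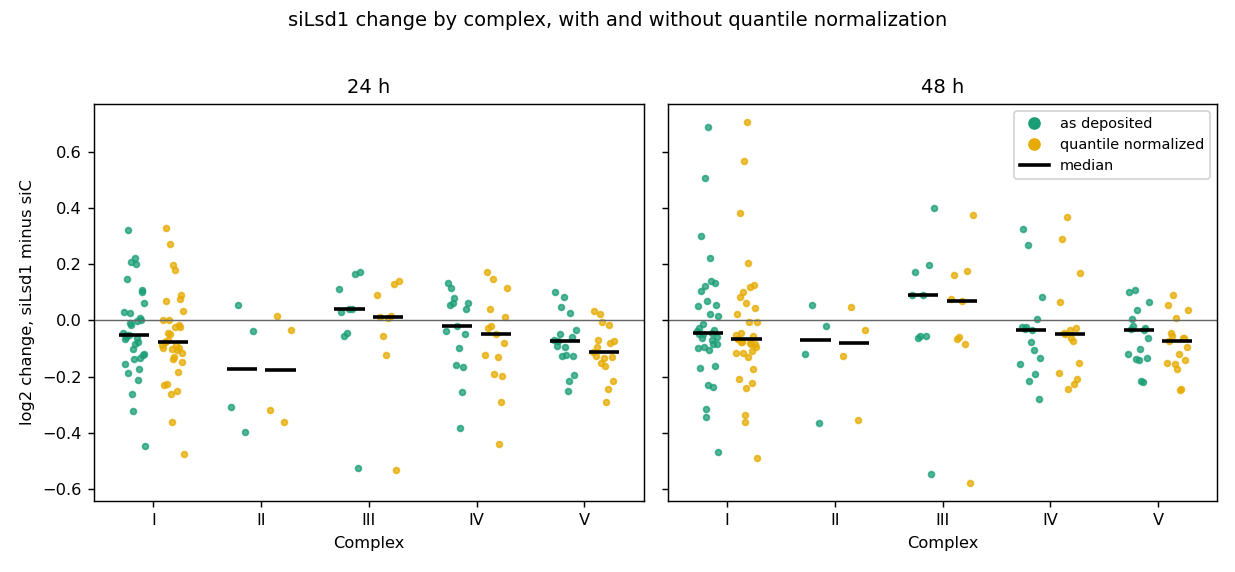
Log2 change, siLsd1 minus siC, of each tested subunit by complex at 24 h and 48 h, on the deposited values (green) and after quantile normalization (yellow). Points are genes and black bars are medians, which stay between -0.18 and 0.09.

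The change with knockdown was not shown to differ between the times for any subunit. For the difference of the changes, 48 h minus 24 h, 0 of 80 subunits were called and 0 had an unadjusted p under 0.05 (limma), while 0 of all genes were called (0%) and 896 (6.57%) had an unadjusted p under 0.05. The difference lay within 0.25 of 0 for 76 subunits, and its 95% interval lay within 0.5 of 0 for 67. Without siLsd1 48 h replicate 3, 0 subunits were called and 5 had an unadjusted p under 0.05, against 1.47% of all genes called.

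Larger changes of single subunits lay between the 48 h and 24 h sets, where time and passage cannot be told apart. In siLsd1 cells 9 subunits were called, 8 higher and 1 lower at 48 h (11.2%, against 14.4% of all genes, 7.25% higher and 7.13% lower). In siC cells 13 were called, 8 higher and 5 lower (16.2%, against 24.2%, 12% higher and 12.2% lower). Quantile normalization called 10 in siLsd1 cells (10 higher, 0 lower, against 15.2% of all genes) and 16 in siC cells (12 higher, 4 lower, against 25.7%). With arrays centred on the median there were 8 in siLsd1 cells (6 higher, 2 lower, against 15.2%) and 16 in siC cells (4 higher, 12 lower, against 26.9%). The balance in siC cells thus turned with the scaling. Without siLsd1 48 h replicate 3 there were 35 in siLsd1 cells (18 higher, 17 lower, against 38.3% of all genes) and 28 in siC cells (15 higher, 13 lower, against 40.4%). Array weights gave 21 higher and 21 lower in siLsd1 cells, where 6336 of all 13644 genes were called. They gave 18 higher and 17 lower in siC cells, where 6192 of all genes were called. The 48 h and 24 h arrays did not overlap for 18 subunits above and 11 below in siLsd1 cells (22% and 21.1% of all genes, 43.1% in all). In siC cells 22 were above and 25 below (28.7% and 26.9% of all genes, 55.6% in all).

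Uqcrh, whose arrays are given above, rose by 0.78 in siLsd1 cells (adjusted p = 0.0349, limma) and by 0.80 in siC cells (adjusted p = 0.0207, limma). The call in siLsd1 cells was kept, of the 10 fits that left out 1 array, in that without siLsd1 48 h replicate 3 (0.63 to 1.06 over all 10). Cox7a2l, known for its role in joining complexes III and IV into supercomplexes, had 6298, 6062 and 5677 on siLsd1 48 h arrays against 4298 and 4366 on siLsd1 24 h arrays, and 5602, 6026 and 6365 on siC 48 h arrays against 4684 and 5037 on siC 24 h arrays. The 48 h arrays were the higher ones throughout, with log2 changes of 0.47 in siLsd1 cells (adjusted p = 0.00296, limma) and 0.30 in siC cells (adjusted p = 0.0120, limma). Ndufb10 rose by 0.44 in siLsd1 and by 0.52 in siC cells, Ndufa6 by 0.40 in siLsd1 and 0.36 in siC cells, and the c ring gene Atp5g2 by 0.36 in siLsd1 and 0.37 in siC cells. Sdha rose by 0.36 and Atp5d, the delta subunit, by 0.20 in siLsd1 cells, while their changes of 0.17 and 0.13 in siC cells were not called. In siC cells Ndufb3 rose by 0.33 (adjusted p = 0.0146, limma), a call lost with arrays centred on the median.

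Cox6a1, the general isoform of its subunit, was the call below 0 in siLsd1 cells and fell by 0.23 (adjusted p = 0.0104, limma). In siC cells the falls were led by Uqcrq (-0.67, adjusted p = 0.0265, limma) and Cox6a2, the heart and muscle isoform (-0.59, adjusted p = 0.0124, limma), followed by Cox5a (-0.34), Ndufb8 (-0.34) and Cox6a1 (-0.15). Cox7c had the highest change, 1.76 in siLsd1 cells and 1.99 in siC cells, on a weak probe set. Its intensities were 97.8, 85.6 and 60.0 on siLsd1 48 h arrays against 32.9 and 16.8 on siLsd1 24 h arrays, and 72.2, 138.3 and 90.2 on siC 48 h arrays against 24.9 and 23.8 on siC 24 h arrays. The other Cox7c probe set, with a mean intensity of 41.9, had changes of -0.13 in siLsd1 cells and 0.52 in siC cells, neither called.

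**Figure D5:**
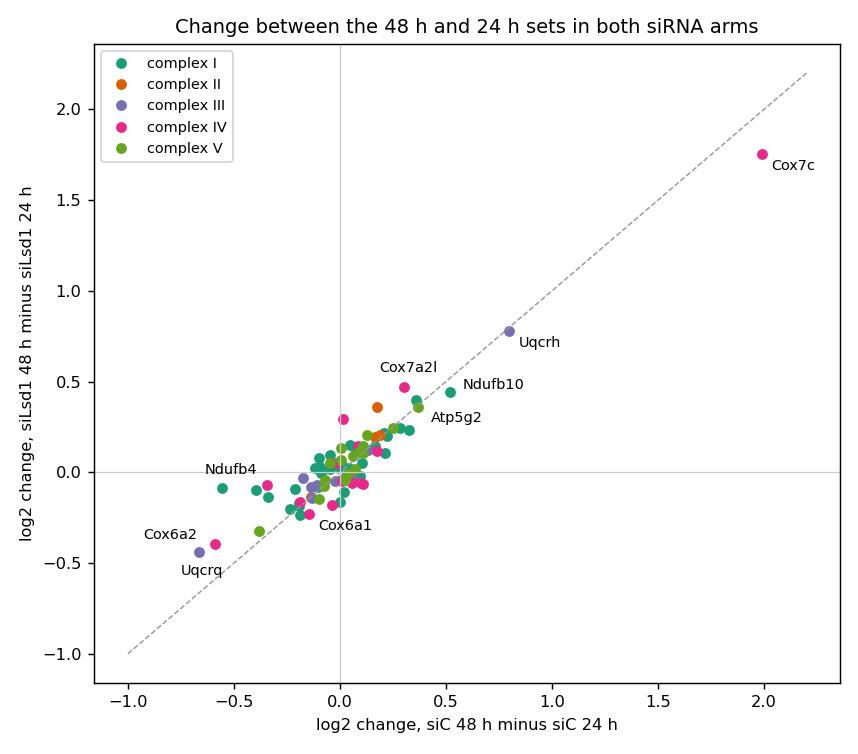
Log2 change between the 48 h and 24 h sets for each tested subunit, with siLsd1 cells on the vertical axis and siC cells on the horizontal axis, coloured by complex; the dashed line marks equal changes. Cox7c (1.76 in siLsd1, 1.99 in siC) and Uqcrh (0.78 in siLsd1, 0.80 in siC) lie at the upper right, and most subunits lie near 0.

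Genes that build or feed the complexes were called in both directions, to be read against the 5.39% of all genes called at 24 h and 12.7% at 48 h. Of 23 complex IV assembly factors, 3 were higher and 0 lower at 24 h (13%), and 2 were higher and 2 lower at 48 h (17.4%). Leaving out siLsd1 48 h replicate 3 called 6 as higher and 1 as lower at 24 h (30.4%, against 25.5% of all genes), and 3 higher and 5 lower at 48 h (34.8%, against 18.1%). Cox11, which delivers copper to the enzyme, rose by 0.73 at 24 h (adjusted p = 0.00718, limma) and 0.72 at 48 h (adjusted p = 0.00204, limma), and Cox18, which inserts a mitochondrially encoded subunit into the membrane, by 0.60 and 0.78. The copper chaperone Cox17 rose by 0.44 at 24 h, and Coa6 fell by 0.36 at 48 h. Of 17 complex I assembly factors 1 was called at 48 h (5.88%), Ndufaf4, which rose by 0.64 (0.43 without that array). Of 6 for complex III 1 was (16.7%), Uqcc3, which fell by 0.46 (-0.29 without that array), with 0 called for the 4 of complex II and the 4 of complex V (0 and 0 at an unadjusted p under 0.05). The median log2 changes at 24 h and 48 h were -0.05 and -0.09 for the complex I factors and -0.01 and 0.03 for the complex IV factors, beside -0.02 and -0.02 over all genes.

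Cycs, the cytochrome c gene that connects complexes III and IV, had 5966 and 5910 on siLsd1 24 h arrays against 3895 and 4443 on siC 24 h arrays. At 48 h Cycs had 3011, 2754 and 5548 on siLsd1 arrays against 1758, 1988 and 2065 on siC arrays. It was higher on all siLsd1 arrays of its time and rose by 0.89 at 48 h (adjusted p = 0.0288, limma). Without siLsd1 48 h replicate 3, the highest of its set by far, the change was 0.58, also called. In its list of 17 carriers and coenzyme Q genes, Coq9 was the other call at 48 h (11.8% in all), and it fell by 0.44. Of 17 citric acid cycle enzymes 1 was lower at 24 h (5.88%) and 2 at 48 h (11.8%), both shares near those of all genes, with 0 higher. Without that array 2 were higher and 3 lower at 24 h (29.4%, against 25.5% of all genes), and 0 higher and 3 lower at 48 h (17.6%, against 18.1%). As reported, citrate synthase (Cs) fell by 0.39 and 0.23, and Suclg1, of succinate-CoA ligase, fell by 0.34 at 48 h. The median of that list was -0.12 at 24 h and -0.05 at 48 h. ND5, the 1 mitochondrially encoded subunit measured under its own symbol, fell by 0.67 at 48 h (adjusted p = 0.0338, limma). Its change was 0.16 at 24 h and -0.25 for the mean, neither called, and between the siC sets ND5 was higher at 48 h by 0.63 (adjusted p = 0.0381, limma).

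Of 21 nuclear regulators of respiratory genes, 1 was higher at 24 h (4.76%) and 4 were higher and 1 lower at 48 h (23.8%). Leaving out siLsd1 48 h replicate 3 called 4 as higher and 2 as lower at 24 h (28.6%, against 25.5% of all genes), with the counts at 48 h as before (23.8%, against 18.1%). Tfam, which packages and transcribes mitochondrial DNA, had 915 and 904 on siLsd1 24 h arrays against 641 and 610 on siC 24 h arrays. At 48 h Tfam had 773, 728 and 1001 on siLsd1 arrays against 531, 543 and 542 on siC arrays. No siLsd1 array overlapped the siC arrays, with changes of 0.54 at 24 h (adjusted p = 0.0493, limma) and 0.62 at 48 h (adjusted p = 0.0105, limma). Of the factors whose motifs were searched, Yy1 rose by 0.25 at 48 h (adjusted p = 0.0343, limma), while Nrf1 (-0.22 and 0.32) and Gabpa (-0.49 and -0.18) were not called at 24 h or 48 h. For the mean of both times Gabpa was called lower (-0.33, adjusted p = 0.0328, limma) and Yy1 higher (0.18, adjusted p = 0.0306, limma). The mean change of Nrf1, 0.05, was not called. Gabpa was called at 24 h, at the same change, when that array was left out. Of 76 mitochondrial ribosomal proteins 0 were called at 24 h (11 at an unadjusted p under 0.05, limma) and 4 higher and 4 lower at 48 h (10.5%). Of 42 cytosolic ones 1 was higher at each time (2.38%), Rps27l. The median log2 changes were 0.06 at 24 h and 0.08 at 48 h for the mitochondrial ones, and 0.03 and -0.01 for the cytosolic ones. For the mean of both times 6 regulators were higher and 3 lower (42.9%, against 23.8% of all genes). Of complex IV assembly factors 6 were higher and 5 lower (47.8%), and of carriers and coenzyme Q genes 2 and 5 (41.2%). The share was 23.5% for citric acid cycle enzymes, 15.8% for mitochondrial and 9.52% for cytosolic ribosomal proteins. It was 11.8% and 16.7% for complex I and III assembly factors, and 0% for those of complexes II and V. Without siLsd1 48 h replicate 3, where 33.8% of all genes were called, the regulators had 42.9%, complex IV factors 52.2% and carriers 41.2%. Citric acid cycle enzymes then had 52.9%, mitochondrial ribosomal proteins 32.9% and cytosolic ones 11.9%. Assembly factors of complexes I, II, III and V had 29.4%, 50%, 16.7% and 25%. The order of the lists thus turned with that array.

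Other probe sets of the same genes mostly had the same sign. Of 72 further subunit probe sets above the dim level, the change had the sign of the probe set used in 61 cases at 24 h, in 55 at 48 h and in 61 for the mean of the times, and for genes called at 48 h (6 further probe sets) and for the mean (15) 0 had the opposite sign. Between the 48 h and 24 h sets 1 of 9 further probe sets of genes called in siLsd1 cells and 2 of 16 in siC cells had the opposite sign. In a fit over all probe sets, the second probe set of Uqcrh was called at 48 h (-0.79, adjusted p = 0.0455, limma) and that of Sdha was too (-0.73, adjusted p = 0.0383, limma), so the change of Sdha at 48 h depended on the probe set: it was -0.12 by the one used. A weak second probe set of Atp5c1, the gamma subunit, with a mean intensity of 79.3, rose by 1.27 between the siC sets, where the one used changed by 0.00. Probe sets listed under several symbols were not used, 9 of them with a subunit among their names.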

How the data were processed

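Per the labels' protocols, total RNA was labelled as biotin cRNA and hybridised to 10 Affymetrix arrays. The authors deposited 1 linear intensity per probe set and array. Their summarisation and normalization are not given in the sources used here. Deposited intensities were turned to log2 with no offset. Array medians of 35.6 to 40.6 stand in place of depth, and precision is limited by how few arrays there are.

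Of 45037 probe sets, 34945 carried 1 gene symbol in the platform annotation, 932 several and 9160 none; 34741 matched the RefSeq table of GRCm38.p6 by Entrez identifier, and 0 symbols changed. The 82 members were read from 165 probe sets. The dimmest 25% of 18193 genes (mean up to 18.4) were left out. limma 3.58.1 in R 4.3.3 (lmFit, eBayes with an intensity trend) was fitted to 4 group means, with 6 residual degrees of freedom, and p-values were Benjamini-Hochberg adjusted over 13644 genes within each comparison. The fit was tested on simulated data. Member probe sets were also tested in a fit over all probe sets. Motifs were searched by letters in RefSeq windows, and figures were drawn with matplotlib 3.10.9 in Python 3.11.15.

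Alternatives were quantile normalization, median centring, averaging all probe sets of a gene, other filters on dim genes, an offset of 16, no trend, array weights, a replicate block, the compared arrays alone and each array left out. Genes named are the subunits called with siLsd1 at 24 h, at 48 h or for the mean, and most of those called between the 48 h and 24 h sets. The extremes of each complex and some called genes of the lists are named too. Ndufa4, Ndufa4l2, Cox7a2l, the tissue isoforms and some regulators were named whatever their values. A planned order of levels within a complex was not made, since probe sets are not comparable in level. Members and lists were chosen with earlier results of these data known.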

Additional observations from a re-analysis of the deposited data

How the results depend on the processing

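Of 616 repeats, under other settings, of called results of single subunits, 437 kept sign and call, 179 kept the sign and lost the call, and 0 changed sign. The count of subunits called at 24 h, 1 as reported, was 0 with no intensity trend, 12 with the compared arrays alone, 18 with array weights (3571 of all 13644 genes) and 0 to 17 when 1 array was left out. At 48 h the 7 became 2 with no trend, 1 with the compared arrays alone and 24 with array weights (4922 of all genes). There were 12 with quantile normalization (2045 of all genes) and 4 with all probe sets of a gene averaged (945 of all genes). With no filter on dim genes 4 of 82 were called (1379 of all genes), and with the dimmest 50% left out 11 of 74 (1941 of all genes). When a 48 h array was left out 1 to 12 were called. For the mean of both times the 15 became 6 with no trend, 29 with array weights (5602 of all genes) and 3 to 21 when 1 array was left out. Between the 48 h and 24 h sets, the 9 in siLsd1 cells became 42 with array weights, 2 with the compared arrays alone and 1 to 35 when 1 array was left out. The 13 in siC cells became 8 with no trend, 35 with array weights, 25 with the compared arrays alone and 3 to 28 when 1 array was left out. Fits without a 48 h array called 357 to 3478 of all 13644 genes at 24 h, 382 to 2473 at 48 h and 2142 to 4617 for the mean. Between the sets they called 1014 to 5232 of all genes in siLsd1 cells and 2116 to 5510 in siC cells. The highest of these leave-out counts came without siLsd1 48 h replicate 3. Quantile normalization without that array, chosen after seeing the data, called 19, 16, 26, 32 and 34 in the same order of comparisons. It called 3442, 2641, 4675, 5219 and 5680 of all 13644 genes. The compared arrays alone called 3183 of all genes at 24 h, 250 at 48 h, and 347 in siLsd1 and 4717 in siC cells between the sets. No trend called 402 at 24 h, 1006 at 48 h, 2617 for the mean and 2908 in siC cells. Array weights called 6336 in siLsd1 and 6192 in siC cells between the sets. The difference between the times gave 0 to 0 when 1 array was left out. The cause of these moves was not tested.

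Samples with the same replicate number did not deviate together (a correlation of -0.24 at 24 h, where 2 arrays a group give 1 value, and -0.23, 0.05 and -0.10 at 48 h), so the numbers are taken as names. With a replicate block the counts were 1 at 24 h, 9 at 48 h, 13 for the mean, 0 for the difference, 9 in siLsd1 cells and 15 in siC cells between the sets. In the same order, 680, 2006, 3273, 0, 2210 and 3697 of all 13644 genes were called. A crossed replicate block at 24 h, added after seeing the data, called 21, with 4613 of all 13644 genes called. The median change of all subunits stayed between -0.08 and -0.01 at 24 h over 22 settings and between -0.08 and 0.02 at 48 h over 21.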
